A study of Homo sapiens with 15 samples.

Results

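The response of RPMI-8226 myeloma cells to 24 h of KB528 was described from 3 libraries treated with 100 nM KB528 for 24 h and 3 libraries given DMSO, 6 of the 15 libraries of the series. Its members were all gene rows of the deposited expression table whose TPM, a share of the library's transcripts corrected for transcript length, averaged at least 1 over the 15 libraries, which were 12002 of 26364 gene rows, with the ERCC spike-in rows left out. No difference between groups entered that filter. The members and the gene lists used below were, however, chosen with earlier results of these data known, so the lists are described and not tested. At its edge, BEND6 (1.0020 TPM), DZIP3 (1.0021 TPM) and ZNF205-AS1 (1.0029 TPM) were inside, and MME (0.9996 TPM), EML6 (0.9984 TPM) and FAM102B (0.9979 TPM) were outside.

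The series measured messenger RNA by strand-specific sequencing in RPMI-8226, a long-established line of human multiple myeloma, a plasma cell cancer, grown with 10% serum. The 5 groups of 3 libraries were DMSO, the vehicle, at 0 h and 100 nM KB528 for 1, 3, 6 or 24 h, and the 6 h group is used below as the nearest earlier time. The labels give the DMSO cells the genotype WT and, for the treated cells, write KB528 in that same field, with no other allele or agent. KB528 is named as an inhibitor of the lysine acetyltransferase activity of p300, and the title of the series names the oncogenic activity of IRF4. The labels do not say whether the 3 libraries of a group were separate cultures. The p-values therefore reflect spread among these libraries alone, and that spread may be technical. DMSO was sampled at 0 h only, so handling and time in culture cannot be told apart from KB528, and in RNA from whole cultures fewer cells of a type and less RNA per cell cannot be told apart.

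p300, encoded by EP300, and its relative CBP, encoded by CREBBP, are coactivators that transcription factors bring to enhancers and promoters, where they acetylate histones and other proteins. Acetylated enhancers are bound by bromodomain proteins, which help RNA polymerase II to elongate. Plasma cells and myeloma cells depend on a few such factors, among them IRF4, MYC and XBP1, which serve growth and the folding and secretion of antibody.

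TPM keeps no sequencing depth, so the depth behind each value was unknown. The ERCC rows took 11.3% to 14.8% of the TPM of a DMSO library and 12.3% to 14.5% at 24 h. Between 11806 and 11988 genes reached 1 TPM in a DMSO library, and between 12228 and 12356 did so at 24 h. Replicates correlated across genes with r of 0.995 to 0.998, and 0 pairs of libraries were identical. Of 12 plasma cell or myeloma markers, 10 were in the table and 9 were at 1 TPM or more in every library, with a summed level of 7596 to 8436 TPM in DMSO and 5081 to 5253 TPM at 24 h. Summed levels of T cell, NK cell, myeloid, fibroblast and endothelial markers stayed under 4 TPM in each of the 6 libraries, and CD3D, CD2, KLRD1, FCGR3A, MPO, COL3A1 and DCN were listed at 0 in all of them. The epithelial markers summed to 116 to 121 TPM in DMSO and 99.6 to 105 TPM at 24 h, with EPCAM at 113 and 98.2 TPM on average and the keratin genes KRT5, KRT14 and KRT19 each under 1 TPM. B cell markers summed to 5.38 to 6.02 TPM in DMSO and 2.80 to 3.21 TPM at 24 h. Erythroid markers summed to 17.1 to 18.7 TPM and 15.3 to 17.3 TPM, with ALAS2 at 0.

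At 24 h the transcriptome had moved widely and mostly by small amounts. Of 12002 genes, 8564 (71.4%) differed from DMSO at an adjusted p under 0.05 in limma, a linear model with moderated variances fitted to log2(TPM + 1) over all genes and all 15 libraries, and every adjusted p below is a Benjamini-Hochberg value from that fit. Of the tested genes, 6738 (56.1%) rose and 1826 (15.2%) fell. The median log2 fold change was 0.41 among the genes that rose and -0.35 among those that fell, and 0.23 over all tested genes. A log2 fold change of at least 1 was reached by 158 of the higher genes, and 159 of the lower genes fell by at least 1, so the large changes were split evenly between the directions. The 24 h libraries lay above all DMSO libraries for 56.7% of tested genes and below all of them for 15.4%. Fold changes here are on the log2(TPM + 1) scale, which understates the change of low genes.

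**Figure D1:**
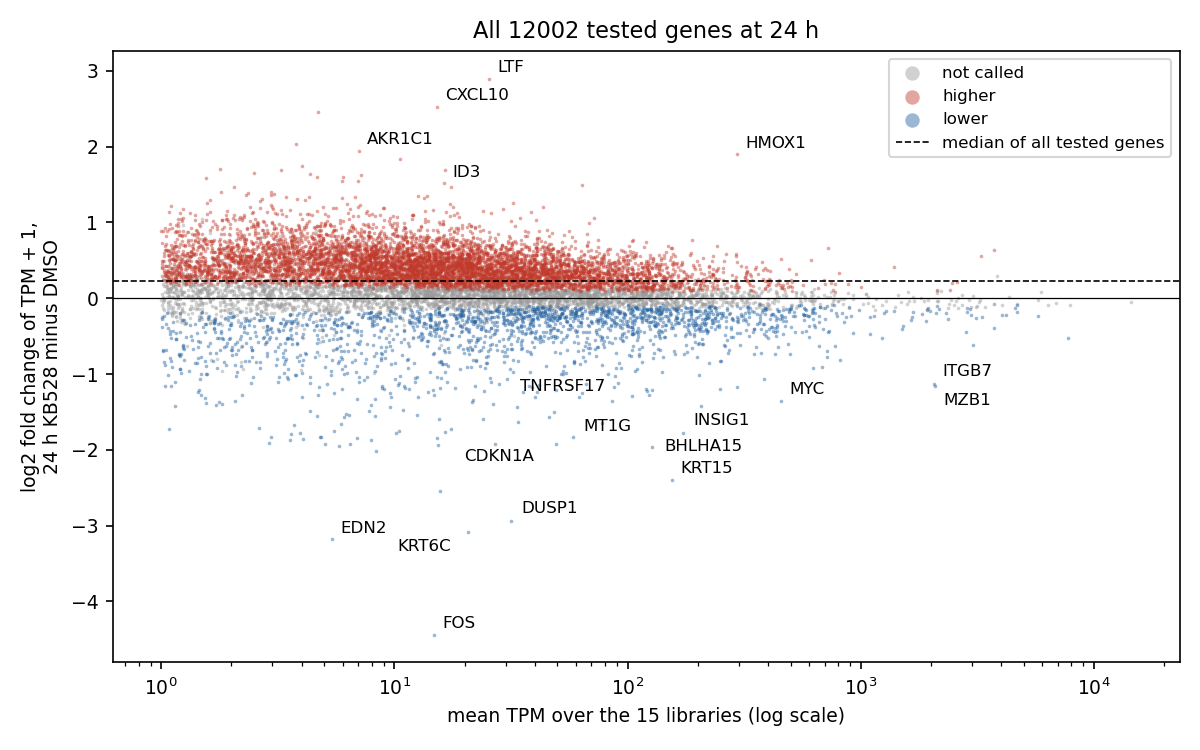
Log2 fold change of TPM + 1 at 24 h against DMSO (vertical axis) by mean TPM over the 15 libraries (horizontal log axis), 1 point for each of the 12002 tested genes, coloured by the limma call at an adjusted p under 0.05. The cloud is centred above 0, at the dashed median of 0.23, while the points farthest from 0 are decreases such as FOS at -4.44.

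The balance of rises and falls depended on how libraries were scaled. TPM is a share of the library, so a rise of many genes and a fall of a few abundant ones can show the same values. Scaling by the median ratio of genes changed the level of the 24 h group relative to DMSO by -0.19 on the log2 scale, by less for low genes after 1 TPM is added, and then 4618 genes were higher and 3485 lower. Scaling to the spike-ins changed it by -0.017 and left 2439 higher and 657 lower, with spike-in factors that spread within the DMSO group from -0.25 to 0.14 on the log2 scale. Of 203 genes given below with values against DMSO, 37 lost their call under spike-in scaling and 0 of the called genes changed sign. Among the 37 were XBP1, PRDM1, CCND2, PIM2, ATF4, SREBF2, NCL, SRM, BAX, BCL2L11, MCL1, CDK1 and RRM2. The median log2 fold change also rose with transcript length. When protein-coding genes were cut into 10 groups of about equal size by length, it was 0.044 in the group of the shortest transcripts (median 1079 bases) and 0.31 in that of the longest (median 9280 bases). After correction for that trend 4033 genes were higher and 4052 lower. The counts of each gene group against DMSO are therefore given below together with those after median-ratio scaling, and its median is to be read against 0.23. Its shares of rises and falls are to be read against the 56.1% and 15.2% of all tested genes.

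**Figure D2:**
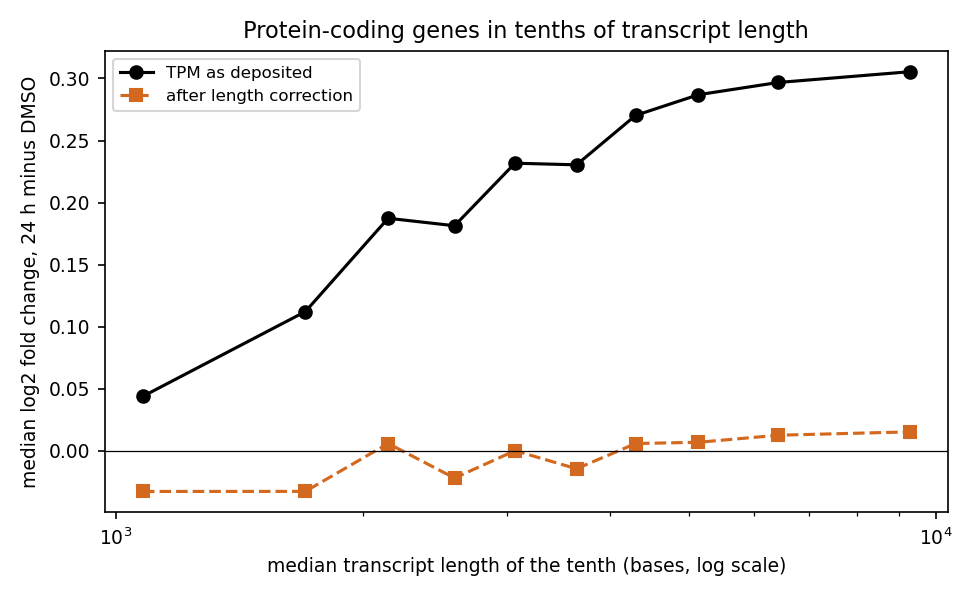
Median log2 fold change at 24 h against DMSO (vertical axis) in 10 groups of protein-coding genes ordered by transcript length (horizontal log axis, in bases), before and after correction for length. The uncorrected medians run from 0.044 to 0.31, and the corrected ones lie between -0.033 and 0.015.

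The genes with the largest changes included stress-response transcription factors, keratins, metallothioneins, antioxidant enzymes and secreted proteins. FOS, a subunit of the AP-1 transcription factor, fell the most of the genes that averaged 5 TPM or more. It measured 38.6, 35.0 and 55.8 TPM in the DMSO libraries and 1.17, 0.947 and 0.877 TPM after 24 h (log2 fold change -4.44, SE 0.129, adjusted p = 1.78e-12). The groups did not overlap, and the highest DMSO library of FOS stood apart from the other two. DUSP1, a phosphatase that switches off MAP kinases, measured 73.7, 70.0 and 111 TPM in the DMSO libraries and 10.4, 10.2 and 9.29 TPM after 24 h (log2 fold change -2.94, SE 0.120, adjusted p = 5.95e-11). EDN2, which encodes the secreted peptide endothelin 2, fell from 12.7 ± 0.273 to 0.518 ± 0.0559 TPM (SD, n = 3, as in all mean levels below). KRT6C and KRT15, keratins of the epithelial cytoskeleton, fell from 31.4 ± 2.47 to 2.81 ± 0.377 TPM and from 258 ± 3.50 to 48.2 ± 1.01 TPM. The reads of KRT6C are uncertain, since it has near-identical copies. BHLHA15, which encodes the secretory cell transcription factor MIST1, measured 161, 151 and 169.6 TPM in the DMSO libraries and 38.9, 42.2 and 40.2 TPM after 24 h (log2 fold change -1.96, SE 0.0855, adjusted p = 1.06e-10). ISG20, an interferon-induced exonuclease, fell from 11.8 ± 0.772 to 2.16 ± 0.263 TPM. The chemokine receptor gene CXCR3 fell from 8.44 ± 1.21 to 1.47 ± 0.198 TPM. PNOC, which encodes a neuropeptide precursor, fell from 23.3 ± 1.76 to 5.36 ± 0.581 TPM. LGALS17A, a transcribed pseudogene, and SNORA80B, a small nucleolar RNA, fell by 1.95 and 1.92 on the log2 scale, with uncertain read assignment for both.

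Among the increases, LTF, which encodes the iron-binding protein lactoferrin, measured 8.21, 7.57 and 8.57 TPM in the DMSO libraries and 68.1, 67.0 and 65.7 TPM after 24 h (log2 fold change 2.90, SE 0.0638, adjusted p = 7.04e-14). Its 24 h libraries lay close together and far above DMSO, while MPO, another granulocyte gene, was listed at 0 in all 6 libraries. CXCL10, a chemokine, measured 4.97, 4.84 and 3.37 TPM in the DMSO libraries and 31.9, 28.0 and 29.8 TPM after 24 h (log2 fold change 2.53, SE 0.0975, adjusted p = 3.9e-11). HMOX1, which encodes heme oxygenase 1, measured 147, 145 and 162 TPM in the DMSO libraries and 561, 582 and 564 TPM after 24 h (log2 fold change 1.91, SE 0.0466, adjusted p = 1.84e-13). HMOX1 was by far the most abundant of the 15 largest increases. AKR1C1 and AKR1C3, aldo-keto reductases of steroid and carbonyl metabolism, rose from 4.23 ± 0.279 to 19.2 ± 1.253 TPM and from 49.6 ± 2.98 to 142 ± 1.34 TPM, and near-identical relatives make the split of their reads uncertain. ID3, an inhibitor of basic helix-loop-helix transcription factors, measured 13.5, 12.5 and 13.4 TPM in the DMSO libraries and 39.6, 39.5 and 39.4 TPM after 24 h (log2 fold change 1.52, SE 0.0962, adjusted p = 5.73e-09). OPTN, which encodes the autophagy receptor optineurin, rose from 9.37 ± 0.802 to 25.5 ± 1.39 TPM. PEX5L, ABTB1, PKN3, COL9A2, SDHAF4 and LINC01484 rose by 1.84, 1.69, 1.62, 1.60, 1.55 and 1.55 on the log2 scale. PKN3 encodes a protein kinase, COL9A2 a collagen chain and SDHAF4 an assembly factor of succinate dehydrogenase. The genes MIR378I (1.47) and MIR4442 (1.35) were also higher, but reads of microRNA genes in an mRNA library are uncertain.

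**Figure D3:**
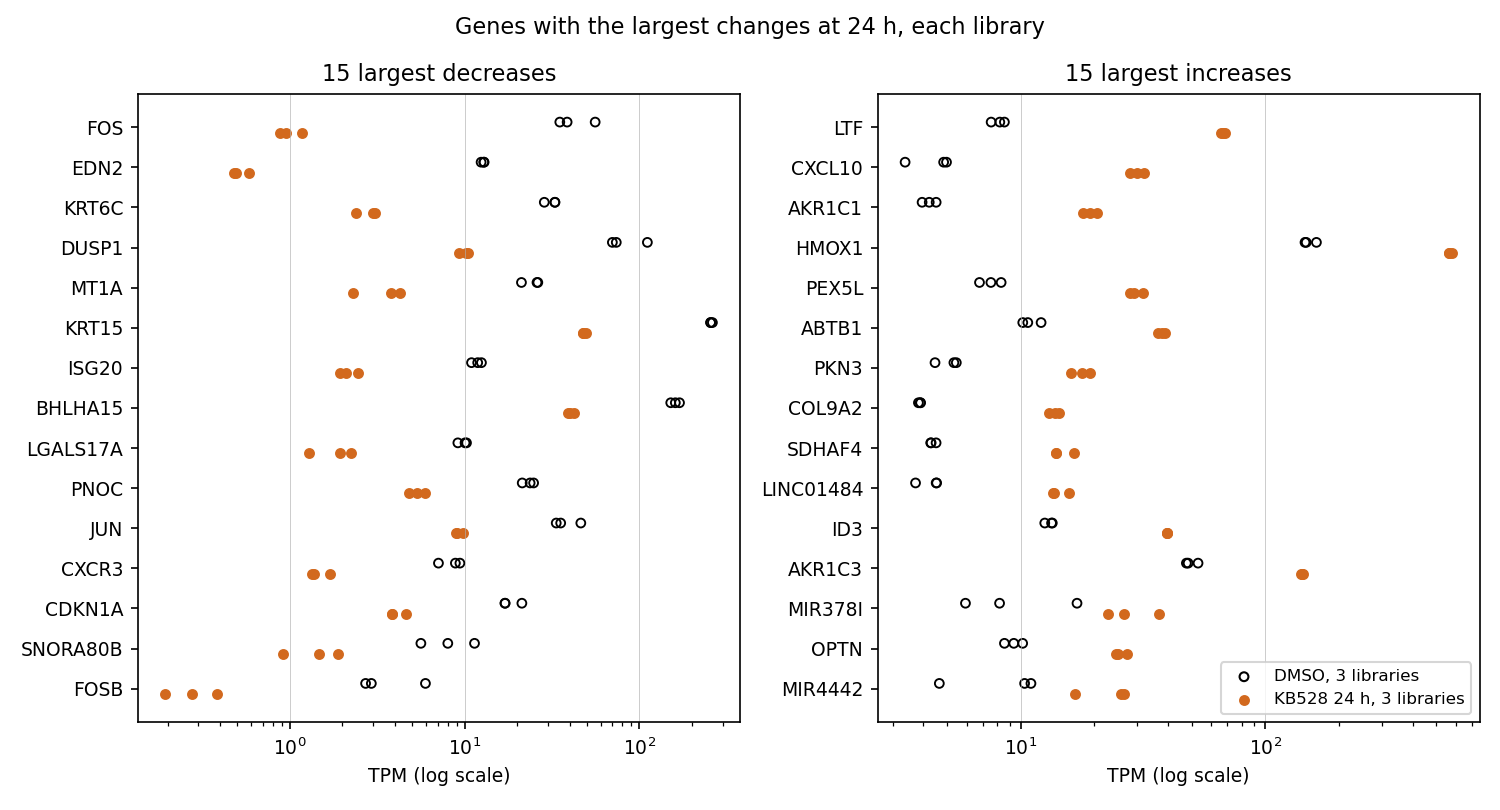
TPM in each library (horizontal log axis) of the 15 largest decreases and 15 largest increases at 24 h among called genes that averaged 5 TPM or more, with open circles for the 3 DMSO libraries and filled circles for the 3 libraries at 24 h. The groups do not overlap for any of the 30 genes, which the ranking required, and FOS lies farthest apart among the decreases and LTF among the increases.

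Transcription factors of the plasma cell program fell in part. Of 34 tested plasma cell and B cell transcription factor genes, 11 rose and 10 fell (median -0.016), and after median-ratio scaling 5 were higher and 18 lower. IRF4, the myeloma dependency named by the series, measured 90.5, 81.7 and 103 TPM in the DMSO libraries and 62.9, 63.6 and 60.1 TPM after 24 h (log2 fold change -0.55, SE 0.0753, adjusted p = 1.33e-05). All 3 treated libraries lay below all DMSO libraries, with a wider spread in DMSO. XBP1, the transcription factor of the unfolded protein response and of antibody secretion, measured 563, 527 and 546 TPM in the DMSO libraries and 401, 399 and 395 TPM after 24 h (log2 fold change -0.45, SE 0.0369, adjusted p = 8.24e-08). POU2AF1, the B cell coactivator of octamer-binding factors, fell from 110.4 ± 14.3 to 69.9 ± 1.10 TPM. KLF2, a Kruppel-like factor of lymphocyte quiescence, fell from 42.6 ± 4.24 to 13.4 ± 0.483 TPM. PRDM1, which encodes the plasma cell repressor BLIMP1, fell by 0.27 on the log2 scale. The PRDM1 call was lost without DMSO replicate 3, 24 h replicate 2 or 24 h replicate 3. IKZF1, a lymphoid zinc finger factor targeted by myeloma drugs, was at 29.1 and 34.2 TPM (log2 fold change 0.23), a difference that was not called after median-ratio scaling or without DMSO replicate 2 or 24 h replicate 1. MEF2C, an early B cell factor, was at 27.8 and 27.4 TPM and was not called, although it was called lower after median-ratio scaling (log2 fold change -0.20). ID2 and STAT3 rose by 0.48 and 0.69 on the log2 scale. ID2 is a relative of ID3, and STAT3 carries interleukin 6 signals.

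MYC, the growth-promoting transcription factor, measured 799, 741 and 883 TPM in the DMSO libraries and 319.9, 314 and 312 TPM after 24 h (log2 fold change -1.35, SE 0.0589, adjusted p = 1.06e-10). Its 3 treated libraries lay close together, all below the lowest DMSO library. MYCN fell from 15.8 ± 1.67 to 9.82 ± 0.309 TPM. Some antagonists of MYC, which compete for its partner MAX, moved the other way. MXD1 rose from 4.72 ± 0.475 to 7.94 ± 0.311 TPM, MXD3 from 14.4 ± 0.227 to 22.2 ± 1.20 TPM and MXD4 from 15.6 ± 0.240 to 23.5 ± 1.58 TPM. In the MYC, MAX and MXD network 4 of 13 genes rose and 3 fell, against 3 and 6 after median-ratio scaling.

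RPMI-8226 expressed MAF, a transcription factor that drives a subset of myelomas, at 403 TPM in DMSO. In the single libraries MAF measured 403, 364 and 442 TPM in DMSO and 277, 292 and 278 TPM after 24 h (log2 fold change -0.51, SE 0.0895, adjusted p = 0.000129). Of 8 genes of its program 6 fell (75.0%, against 15.2% of all tested genes) and 1 rose. Their median was -0.50, and 7 were lower and 1 higher after median-ratio scaling. ITGB7, an integrin subunit used for adhesion to bone marrow stroma, measured 2536, 2419 and 2659 TPM in the DMSO libraries and 1155, 1179 and 1134 TPM after 24 h (log2 fold change -1.13, SE 0.0467, adjusted p = 6.43e-11). RND3, a small GTPase gene, fell from 13.6 ± 1.66 to 3.95 ± 0.245 TPM, SPP1, which encodes osteopontin, from 297 ± 20.2 to 211 ± 2.17 TPM, and NUAK1, a kinase gene, from 4.996 ± 0.573 to 2.74 ± 0.359 TPM. CCND2, the D-type cyclin of MAF-driven myeloma, fell by 0.31 and the chemokine receptor gene CCR1 rose by 0.29 on the log2 scale.

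Surface antigens used as myeloma targets fell more often than they rose. Of 25 tested antigen and receptor genes 12 fell (48.0%, against 15.2% of all tested genes) and 8 rose. Their median was -0.10, and 15 were lower and 6 higher after median-ratio scaling. TNFRSF17, which encodes BCMA, measured 131, 123.1 and 116 TPM in the DMSO libraries and 48.3, 50.9 and 50.9 TPM after 24 h (log2 fold change -1.28, SE 0.0619, adjusted p = 3.15e-10). CD38 measured 54.7, 52.3 and 55.0 TPM in the DMSO libraries and 29.5, 28.3 and 28.1 TPM after 24 h (log2 fold change -0.89, SE 0.0466, adjusted p = 7.17e-10). SDC1, which encodes the plasma cell marker CD138, fell from 243 ± 17.4 to 158 ± 2.85 TPM. For each of these antigens the groups did not overlap. GPRC5D, an orphan receptor targeted in myeloma, fell from 5.57 ± 1.21 to 0.790 ± 0.294 TPM. CD72, a B cell inhibitory receptor, fell from 7.37 ± 0.251 to 1.42 ± 0.0799 TPM and CD320, the receptor for the vitamin B12 carrier, from 559 ± 7.10 to 368 ± 8.96 TPM. SLAMF7 fell by 0.46 and the homing receptor CXCR4 by 0.26 on the log2 scale. ITGB1, which encodes an integrin beta chain, rose from 14.5 ± 0.555 to 26.9 ± 1.56 TPM.

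The secretory machinery of the cells fell as a group. Of 58 endoplasmic reticulum (ER) chaperone, translocation and secretion genes 41 fell (70.7%, against 15.2% of all tested genes) and 7 rose. Their median log2 fold change was -0.33 against 0.23 for all genes. After median-ratio scaling 48 were lower and 2 higher, and after spike-in scaling 21 and 0. Without 24 h replicate 2, 4 of these genes rose. Of 10 antibody-related and secreted plasma cell products 8 fell (80.0%) and 0 rose (median -0.43), the same counts as after median-ratio scaling. HSPA5, which encodes the chaperone BiP, measured 718, 664 and 749 TPM in the DMSO libraries and 407, 405 and 397 TPM after 24 h (log2 fold change -0.81, SE 0.0410, adjusted p = 5.13e-10). HSP90B1, which encodes the ER form of HSP90, measured 767, 706 and 755 TPM in the DMSO libraries and 440.4, 443 and 418 TPM after 24 h (log2 fold change -0.77, SE 0.0373, adjusted p = 3.15e-10). The treated libraries of these chaperone genes lay close together and well below DMSO. MZB1, a plasma cell chaperone for antibody assembly and one of the most abundant transcripts of the line, measured 2669.8, 2667 and 2517 TPM in the DMSO libraries and 1171, 1183 and 1163 TPM after 24 h (log2 fold change -1.16, SE 0.0408, adjusted p = 1.29e-11). TXNDC5, a protein disulfide isomerase, fell from 159 ± 8.90 to 68.3 ± 3.15 TPM and FKBP11, a secretory cell prolyl isomerase, from 159.6 ± 6.02 to 93.2 ± 1.31 TPM. DERL3, a part of ER-associated degradation, fell from 72.4 ± 2.68 to 36 ± 0.2998 TPM. HERPUD1 and DNAJB9, also of ER-associated degradation, fell by 0.63 and 0.67 on the log2 scale. SSR2, a subunit of the translocon-associated complex, fell from 753 ± 9.60 to 466 ± 3.94 TPM and PDIA4, a disulfide isomerase, from 392.2 ± 22.2 to 278 ± 7.99 TPM.

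The promoters of HSPA5 and HSP90B1 are shown because this group moved together and its stress-inducible members are known to carry the ER stress element, CCAAT followed after any 9 bases by CCACG, by which XBP1 and ATF6 reach them. The sequences are the 250 bases before the start site in RefSeq on GRCh38.p14, at chr9:125241344-125241593 (minus strand) for HSPA5 and chr12:103930160-103930409 (plus strand) for HSP90B1, 5′ to 3′ in the direction of the gene, with matches on either strand in capitals.
HSPA5: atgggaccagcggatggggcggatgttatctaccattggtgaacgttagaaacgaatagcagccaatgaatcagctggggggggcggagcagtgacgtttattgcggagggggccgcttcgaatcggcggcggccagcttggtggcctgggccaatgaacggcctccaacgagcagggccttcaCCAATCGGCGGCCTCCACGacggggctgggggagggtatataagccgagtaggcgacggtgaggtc
HSP90B1: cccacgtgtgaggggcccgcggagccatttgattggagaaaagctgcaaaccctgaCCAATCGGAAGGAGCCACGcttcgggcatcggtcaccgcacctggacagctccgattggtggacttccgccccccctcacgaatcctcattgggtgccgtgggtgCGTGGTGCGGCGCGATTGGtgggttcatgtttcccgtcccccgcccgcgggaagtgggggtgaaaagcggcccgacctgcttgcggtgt
The match in HSPA5 began 66 bases before the start, and those in HSP90B1 began 194 and 89 bases before it. Searched on both strands, the element was found in 6 of 51 promoters of the group (11.8%) and in 14 of 9252 promoters of tested genes (0.151%). A plain CCAAT box, which the element contains, was found in 36 of the 51 (70.6%), against 36.3% of all. A match describes the letters of the promoter and shows neither binding nor a cause.

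Genes of sterol and fatty acid synthesis fell together. Of 35 genes 28 fell (80.0%, against 15.2% of all tested genes) and 3 rose. Their median was -0.47, with 31 lower and 3 higher after median-ratio scaling and 17 and 2 after spike-in scaling. INSIG1, the ER protein that holds back sterol sensors, measured 207, 178 and 203 TPM in the DMSO libraries and 56.1, 55.0 and 57.2 TPM after 24 h (log2 fold change -1.78, SE 0.0552, adjusted p = 3.15e-12). SREBF1, the transcription factor of lipid synthesis, fell from 124 ± 13.5 to 56.7 ± 1.05 TPM, and its relative SREBF2 fell by 0.39 on the log2 scale. In the cholesterol pathway, HMGCS1, which makes its precursor, fell from 41.1 ± 3.02 to 17.9 ± 0.943 TPM. SQLE, the squalene epoxidase, fell by 1.00 on the log2 scale. DHCR7, which makes cholesterol in a last step, fell from 357 ± 27.9 to 157 ± 3.71 TPM. In fatty acid synthesis, FASN, the synthase, fell from 274 ± 50.6 to 153 ± 4.55 TPM and SCD, the desaturase, from 309.8 ± 37.1 to 134 ± 3.35 TPM. The groups of 3 libraries did not overlap for any of these genes, as they did not for 26 lower genes of the list in all.

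Genes for making ribosomes and other MYC targets were lower by modest amounts. Of 65 MYC target and nucleolar genes 49 fell (75.4%, against 15.2% of all tested genes) and 1 rose. Their median was -0.26, with 59 lower and 0 higher after median-ratio scaling and 6 and 0 after spike-in scaling. The number that rose was 2 without DMSO replicate 1 or DMSO replicate 3. ODC1, the polyamine enzyme and a textbook MYC target, measured 751, 672 and 707 TPM in the DMSO libraries and 387, 375 and 373 TPM after 24 h (log2 fold change -0.91, SE 0.0456, adjusted p = 5.13e-10). NPM1, which encodes the nucleolar protein nucleophosmin, fell from 1321 ± 77.7 to 913 ± 10.2 TPM, and NCL, which encodes nucleolin, from 699 ± 35.7 to 519 ± 28.0 TPM. NOP16, a ribosome assembly gene, fell from 81.0 ± 1.98 to 43.7 ± 2.16 TPM. SRM, the spermidine synthase, fell from 1065 ± 106 to 764 ± 7.32 TPM. The groups did not overlap for these genes, and ODC1 and NOP16 fell farther than the rest. Of 22 genes that host small nucleolar RNAs 10 fell and 1 rose (2 without DMSO replicate 3), with SNHG15 from 159 ± 6.00 to 97.6 ± 3.55 TPM. After median-ratio scaling 17 of these host genes were lower and 0 higher. Of 193 small nucleolar and Cajal body RNAs themselves, whose reads are uncertain in an mRNA library, 67 fell and 10 rose (median -0.24). The count of rises was 16 without DMSO replicate 1 and 17 without 24 h replicate 3. After median-ratio scaling 86 of these RNAs were lower and 7 higher.

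Proteins of the ribosome itself and of mitochondria moved less. Of 85 cytosolic ribosomal protein genes 25 fell and 2 rose (median -0.077), but 71 were lower after median-ratio scaling and 0 were lower after spike-in scaling. The count that fell ranged from 12 without DMSO replicate 1 and 13 without DMSO replicate 2 to 46 without DMSO replicate 3, and was 16 without 24 h replicate 1. RPL10 fell from 1764 ± 89.8 to 1440.0 ± 16.8 TPM and RPL23 from 3665 ± 279.7 to 3092 ± 66.0 TPM. RPL39L, a variant of a ribosomal protein, rose from 62.4 ± 4.71 to 93.8 ± 1.54 TPM. Of 77 mitochondrial ribosomal protein genes 35 fell and 9 rose (57 and 0 after median-ratio scaling, 1 and 0 after spike-in scaling, and 5 rose without 24 h replicate 2), with MRPL36 from 241 ± 19.8 to 161 ± 5.21 TPM. Of 80 nuclear genes for oxidative phosphorylation subunits 18 fell and 11 rose (44 and 1 after median-ratio scaling, 1 and 0 after spike-in scaling). Without DMSO replicate 1 the counts were 11 lower and 18 higher, and without DMSO replicate 3 there were 28 lower. ATP5G1, which encodes a subunit of ATP synthase, fell from 717 ± 25.9 to 503 ± 8.599 TPM. These lists hold short transcripts, with a median length of 1197 bases for the cytosolic ribosomal proteins and 1532 bases for the mitochondrial ones against 3155.5 bases over all tested genes. After length correction 67 cytosolic ribosomal protein genes were lower and 1 higher. The counts were then 55 and 1 for the mitochondrial ones and 40 and 5 for the oxidative phosphorylation genes.

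Cell division genes were higher than in DMSO. In the list of 57 mitosis and G2/M genes 54 went up and 1 down, with a median log2 fold change of 0.49 against 0.23 for all genes, and 47 and 3 did so after median-ratio scaling and 27 and 0 after spike-in scaling. The number that went down was 2 without DMSO replicate 2. PLK1, a kinase of mitotic entry and spindle assembly, measured 238, 226 and 269 TPM in the DMSO libraries and 357, 359 and 360.1 TPM after 24 h (log2 fold change 0.56, SE 0.0665, adjusted p = 3.31e-06). CCNB2, which encodes cyclin B2, measured 229, 229.8 and 235 TPM in the DMSO libraries and 344, 348 and 346 TPM after 24 h (log2 fold change 0.58, SE 0.0379, adjusted p = 8.5e-09). All 3 treated libraries of both genes lay above all DMSO libraries. SPC25, a kinetochore subunit, rose from 25.7 ± 1.54 to 50.6 ± 1.27 TPM, and TOP2A, the topoisomerase of chromosome condensation, from 89.2 ± 8.50 to 144 ± 4.91 TPM. FOXM1, the transcription factor of mitotic genes, rose from 86.9 ± 11.5 to 131 ± 3.06 TPM. MKI67, the proliferation marker Ki-67, rose from 26.8 ± 4.68 to 38.9 ± 2.60 TPM. CDK1, the mitotic kinase, rose by 0.48 and the phosphatase gene CDC25C by 0.81 on the log2 scale.

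The promoters of PLK1 and CCNB2 are shown because mitotic genes share the cell cycle homology region, TTTGAA, through which the DREAM complex and its partners hold them back outside of division. They are the 250 bases before the start site in RefSeq on GRCh38.p14, at chr16:23678639-23678888 and chr15:59104896-59105145 (both plus strand), 5′ to 3′, with matches on either strand in capitals.
PLK1: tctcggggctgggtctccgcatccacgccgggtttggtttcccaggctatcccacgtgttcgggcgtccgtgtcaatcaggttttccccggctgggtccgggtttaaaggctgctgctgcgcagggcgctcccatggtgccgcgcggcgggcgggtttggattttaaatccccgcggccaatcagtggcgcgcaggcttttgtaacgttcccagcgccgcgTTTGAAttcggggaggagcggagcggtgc
CCNB2: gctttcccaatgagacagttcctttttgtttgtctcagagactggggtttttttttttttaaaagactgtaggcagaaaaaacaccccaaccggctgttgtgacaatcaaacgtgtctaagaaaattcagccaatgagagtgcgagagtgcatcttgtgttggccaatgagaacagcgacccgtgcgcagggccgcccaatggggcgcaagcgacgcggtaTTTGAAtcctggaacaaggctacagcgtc
In each promoter 1 match began 29 bases before the start. The letters TTTGAA were found on either strand in 26 of 49 promoters of the group (53.1%) and in 753 of 9252 promoters of tested genes (8.14%). CCAAT boxes, often its neighbours, were found in 37 of the 49 (75.5%) against 36.3% of all. Members with TTTGAA had a median log2 fold change of 0.59 and those without it 0.38, which describes the list and was not tested.

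Replication genes had a median of 0.29, near the 0.23 of all genes. In the list of 53 DNA replication and G1/S genes 40 went up (75.5%, against 56.1% of all tested genes) and 4 down. After median-ratio scaling 24 were higher and 11 lower, and after spike-in scaling 5 and 0. TYMS, the thymidylate synthase, rose from 238 ± 8.11 to 359 ± 0.891 TPM. RRM2, a subunit of ribonucleotide reductase, rose from 142 ± 13.9 to 199 ± 2.92 TPM. CLSPN, which encodes the checkpoint adaptor claspin, rose from 12.3 ± 1.255 to 20.9 ± 0.703 TPM, and CHAF1B, a histone chaperone of replication, from 20.4 ± 1.34 to 33.7 ± 1.65 TPM. CDC6, which loads the replicative helicase, fell from 104 ± 6.21 to 91.2 ± 2.03 TPM. Of 36 tested histone genes of the clusters 13 fell and 3 rose (median -0.24; 19 and 0 after median-ratio scaling), and 37 others were below the filter. Their replication-dependent transcripts lack a poly(A) tail and resemble each other, so their reads are uncertain in an mRNA library. Without 24 h replicate 2 or 24 h replicate 3, 1 histone gene rose.

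Regulators of entry into the cycle were split. CDKN1A, which encodes the kinase inhibitor p21, measured 17.0, 17.0 and 21.3 TPM in the DMSO libraries and 4.64, 3.82 and 3.86 TPM after 24 h (log2 fold change -1.93, SE 0.0773, adjusted p = 5.33e-11), although it had stood at 159 ± 3.56 TPM at 1 h. CDKN1B and CDKN2D, other kinase inhibitors, rose from 82.1 ± 5.07 to 115 ± 2.85 TPM and from 11.8 ± 0.396 to 18.1 ± 0.737 TPM. CCND1, a D-type cyclin, fell from 21.9 ± 2.25 to 13.5 ± 0.767 TPM, while CCND3, its relative, rose from 28.8 ± 2.15 to 41.5 ± 0.420 TPM. CCNE1 and CCNE2, the E-type cyclins, rose by 0.52 and 0.56, and CDK2, their kinase, by 0.58 on the log2 scale. Of 25 genes of the list 11 rose (44.0%, against 56.1% of all tested genes) and 6 fell. That balance turned to 10 higher and 12 lower after median-ratio scaling.

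Targets of the tumour suppressor p53 moved in both directions. Of 28 targets 14 rose and 6 fell (median 0.22), with 12 higher and 10 lower after median-ratio scaling and 9 higher and 11 lower after length correction. GADD45B, a growth arrest gene, fell from 59.4 ± 2.61 to 24.4 ± 0.760 TPM, and AEN, an apoptosis nuclease, from 57.5 ± 4.09 to 36.1 ± 0.336 TPM. DDB2, a sensor of ultraviolet damage, rose from 35.2 ± 2.01 to 64.8 ± 2.39 TPM, and TNFRSF10B, a death receptor, from 5.69 ± 0.676 to 9.11 ± 0.156 TPM. BBC3, which encodes the BH3-only protein PUMA, averaged 6.95 ± 0.953 TPM with DMSO and 7.39 ± 0.683 TPM after 24 h and was not called.

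In the BCL2 family 10 of 18 genes rose (55.6%, near the 56.1% of all tested genes) and 4 fell. The number that fell was 2 without DMSO replicate 3 or without 24 h replicate 1. After median-ratio scaling 5 were higher and 7 lower. BCL2L1, which encodes the survival protein BCL-XL, measured 121, 116 and 132 TPM in the DMSO libraries and 71.4, 73.9 and 71.0 TPM after 24 h (log2 fold change -0.76, SE 0.0584, adjusted p = 4.35e-08). Of the pro-death genes, BAX, BAD and BCL2L11, which encodes BIM, rose from 65.7 ± 0.580 to 90.1 ± 4.04 TPM, from 95.4 ± 6.78 to 141 ± 6.76 TPM and from 26.7 ± 3.97 to 36.5 ± 0.491 TPM. The pro-death gene BBC3, given above, was not called, and other pro-death genes of the list are not reported here. MCL1, the survival protein on which many myelomas depend, was at 97.8 and 87.9 TPM. Its log2 fold change of -0.15 was called (adjusted p = 0.0415 in limma), but the call was lost when DMSO replicate 1 or 3, or any 24 h replicate, was left out.

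Genes of lysine acetyltransferases and their coactivators, among them EP300, which encodes the named target of KB528, were mostly higher, where 56.1% of all tested genes rose. Of 18 lysine acetyltransferase and coactivator genes 16 rose (88.9%) and 1 fell, with a median of 0.42 (11 and 1 after median-ratio scaling, 5 and 0 after spike-in scaling). EP300 measured 21.5, 17.4 and 27.3 TPM in the DMSO libraries and 34.1, 32.6 and 30.0 TPM after 24 h (log2 fold change 0.55, SE 0.141, adjusted p = 0.00278). CREBBP measured 16.1, 13.5 and 20.2 TPM in the DMSO libraries and 29.4, 27.0 and 25.2 TPM after 24 h (log2 fold change 0.70, SE 0.134, adjusted p = 0.000292). The treated libraries lay above all DMSO libraries for both genes. NCOA1, a nuclear receptor coactivator, rose from 1.83 ± 0.142 to 4.35 ± 0.146 TPM and the acetyltransferase gene KAT2B from 8.79 ± 1.03 to 13.6 ± 0.0798 TPM. CITED2, a partner of p300 that fell within the list, averaged 221 ± 20.1 TPM with DMSO and 198 ± 3.77 TPM after 24 h. Its call was lost without DMSO replicate 3, 24 h replicate 1 or 24 h replicate 3, which left 0 falls in the list. The transcripts of this list are long, with a median of 7167 bases, and after length correction 10 were higher and 2 lower.

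Chromatin remodeler and deacetylase genes are to be read against the same 56.1%. Of 57 chromatin remodeler and histone methylation genes 44 rose (77.2%) and 0 fell (median 0.36; 32 and 6 after median-ratio scaling, 23 and 11 after length correction, 8 and 0 after spike-in scaling). SMARCC2, a subunit of the SWI/SNF remodeler, rose from 46.6 ± 7.57 to 86.7 ± 3.28 TPM, and EZH1, a Polycomb methyltransferase, from 21.3 ± 2.17 to 33.8 ± 0.737 TPM. KDM4A, a histone demethylase, rose from 17.1 ± 1.45 to 27.1 ± 0.367 TPM. Of 17 histone deacetylase and sirtuin genes 13 rose (76.5%) and 1 fell (8 and 3 after median-ratio scaling), and 2 fell without DMSO replicate 2. HDAC6, a cytoplasmic deacetylase, rose from 15.5 ± 1.45 to 27.2 ± 1.88 TPM, and HDAC1, a nuclear one, from 143 ± 3.67 to 195 ± 2.21 TPM. Of 25 genes of the BET proteins and of P-TEFb, the elongation kinase, 13 rose (52.0%, near the share of all genes) and 1 fell (median 0.18, 5 and 3 after median-ratio scaling, 4 and 8 after length correction), and 0 fell without 24 h replicate 3. BRD3 rose from 11.1 ± 1.74 to 20.2 ± 0.641 TPM and AFF4, a scaffold of the super elongation complex, from 5.33 ± 0.952 to 9.90 ± 0.849 TPM. HEXIM1, the inhibitor of P-TEFb, averaged 16.9 ± 1.06 TPM with DMSO and 17.0 ± 1.04 TPM after 24 h and was not called, although it was called lower after length correction (log2 fold change -0.24, adjusted p = 0.0319 in limma). It had stood at 83.1 ± 6.54 TPM at 3 h.

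**Figure D4:**
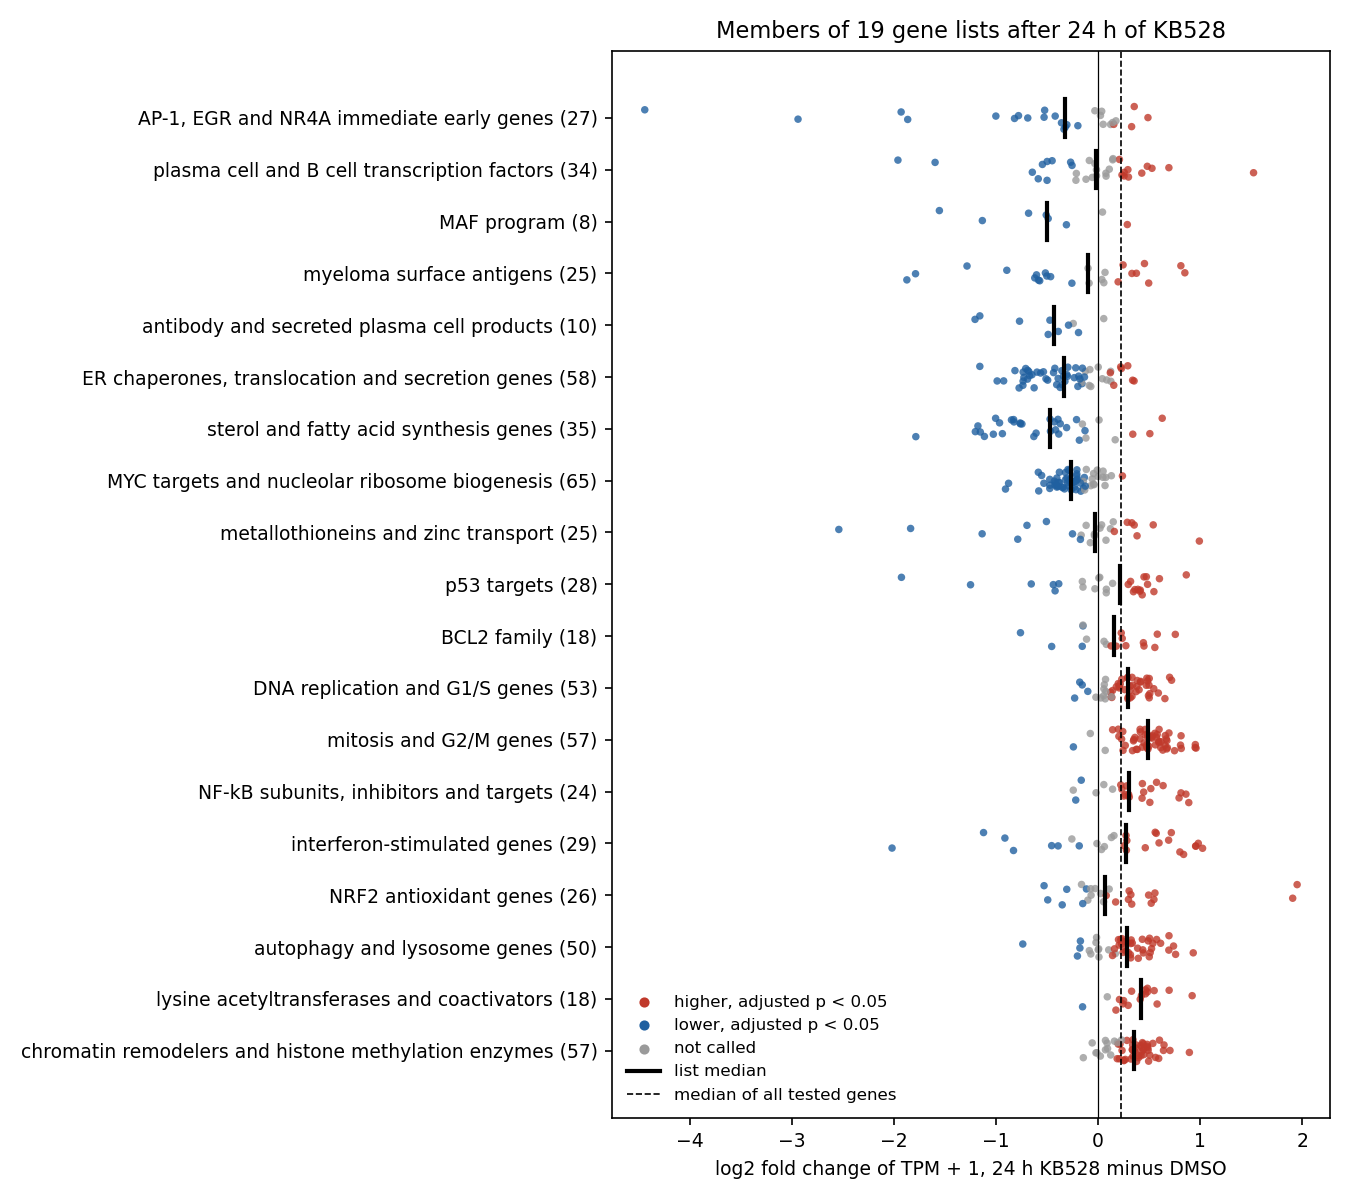
Log2 fold change of TPM + 1 at 24 h against DMSO (horizontal axis) of the tested members of 19 gene lists, 1 point per gene, with the list median as a bar and the median of all tested genes as a dashed line. The ER list, the sterol list and the list of MYC target and nucleolar genes lie mostly left of 0, with medians of -0.33, -0.47 and -0.26. Mitosis genes lie to the right, with a median of 0.49.

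Immediate early genes, which respond to growth and stress signals within minutes, were lower. Of 27 tested members 16 fell (59.3%, against 15.2% of all tested genes) and 4 rose, and 8 rose without DMSO replicate 3. Their median was -0.32, with 17 lower and 3 higher after median-ratio scaling. Beside FOS and DUSP1, the AP-1 subunit JUN measured 35.4, 33.4 and 46.2 TPM in the DMSO libraries and 9.03, 9.75 and 8.96 TPM after 24 h (log2 fold change -1.93, SE 0.102, adjusted p = 8.35e-10). FOSB, a further AP-1 subunit, fell from 3.87 ± 1.82 to 0.284 ± 0.0944 TPM. DMSO replicate 3 was the highest DMSO library for FOS, FOSB, JUN and DUSP1. The groups were still apart without it, since every treated library was below the lowest DMSO library for each of these genes. DUSP2, a phosphatase of lymphocytes, fell from 53.8 ± 4.64 to 26.4 ± 1.57 TPM and IER2 from 62.6 ± 7.81 to 35.9 ± 1.14 TPM. JUND and JUNB fell by 0.31 and 0.20 on the log2 scale, far less than JUN.

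Of 24 NF-kB subunits, inhibitors and targets 18 rose (75.0%, against 56.1% of all tested genes) and 2 fell. Their median of 0.30 was little above the 0.23 of all genes. After median-ratio scaling 13 were higher and 3 lower, and after spike-in scaling 7 and 0. The number that fell was 0 without DMSO replicate 1 and 1 without 24 h replicate 3. NFKB2, the precursor of the non-canonical subunit, measured 19.4, 19.3 and 21.6 TPM in the DMSO libraries and 38.6, 38.5 and 37.1 TPM after 24 h (log2 fold change 0.89, SE 0.0700, adjusted p = 5.56e-08). RELB, its partner, rose from 6.04 ± 0.549 to 11.3 ± 0.140 TPM and NFKB1 from 19.9 ± 2.24 to 30.0 ± 0.650 TPM. CYLD, a deubiquitinase that restrains the pathway, rose from 11.6 ± 1.07 to 20.8 ± 0.544 TPM, and the survival gene BIRC3 from 1.48 ± 0.158 to 2.85 ± 0.206 TPM.

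Cytokine signalling genes moved in both directions. In the JAK-STAT list 11 of 20 genes rose (55%, near the 56.1% of all tested genes) and 9 fell (45%, against 15.2%). After median-ratio scaling 9 were higher and 9 lower, and after spike-in scaling 7 and 2. Of the signal carriers STAT3, JAK1 and STAT5B rose from 20.4 ± 1.95 to 33.6 ± 0.958 TPM, from 27.9 ± 3.22 to 42.3 ± 1.62 TPM and from 14.0 ± 1.62 to 22 ± 0.369 TPM. Of the feedback inhibitors SOCS3 and SOCS1 fell from 2.41 ± 0.237 to 0.890 ± 0.153 TPM and from 3.51 ± 0.403 to 1.71 ± 0.101 TPM, and CISH fell by 0.38 on the log2 scale. PIM2, a survival kinase of myeloma, fell from 371 ± 30.7 to 285 ± 4.59 TPM. Of 20 TGF-beta and SMAD regulators 10 rose (50%, against 56.1% of all tested genes) and 5 fell (25%, against 15.2%). However, 6 were higher and 7 lower after median-ratio scaling. The inhibitory SMAD6 and SMAD7 fell from 2.17 ± 0.0784 to 1.05 ± 0.166 TPM and from 10.4 ± 0.735 to 7.16 ± 0.909 TPM.

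Interferon-stimulated genes also went in both directions. Of 29 tested members 16 rose (55.2%, near the 56.1% of all tested genes) and 7 fell, with a median of 0.27. After median-ratio scaling 13 were higher and 9 lower. A further 15 genes of the list were below the filter. PARP14 and SAMD9L rose from 8.26 ± 1.00 to 17.2 ± 1.06 TPM and from 4.64 ± 0.393 to 9.94 ± 0.547 TPM, and IFI35 from 37.9 ± 0.979 to 66.7 ± 2.14 TPM. OAS1, a sensor of double-stranded RNA, fell from 19 ± 0.269 to 8.20 ± 0.414 TPM, and IFIT1 and IFIT3, which bind viral RNA, from 2.10 ± 0.244 to 0.644 ± 0.131 TPM and from 3.61 ± 0.195 to 1.60 ± 0.172 TPM. ISG15, the ubiquitin-like modifier, fell from 45.6 ± 3.96 to 33.1 ± 3.19 TPM. Of 20 genes of MHC class I presentation 11 rose (55.0%, also near 56.1%) and 5 fell, with HLA-B from 121 ± 1.87 to 180.1 ± 4.85 TPM. After median-ratio scaling 9 were higher and 7 lower, and after length correction 7 and 9. Reads of HLA genes are uncertain, since the genes resemble each other and vary between people.

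Stress genes gave a mixed picture. HMOX1, AKR1C1, FTH1 and FTL are all in the list of targets of NRF2, the antioxidant factor. FTH1, the ferritin heavy chain, measured 3013, 2809 and 3211 TPM in the DMSO libraries and 4387, 4437 and 4444 TPM after 24 h (log2 fold change 0.56, SE 0.0486, adjusted p = 1.48e-07). FTL, the ferritin light chain, measured 8772, 9282 and 8849 TPM in the DMSO libraries and 6267, 6204 and 6168 TPM after 24 h (log2 fold change -0.53, SE 0.0370, adjusted p = 1.63e-08). The ferritin chains thus moved in opposite directions, each with no overlap between the groups. GCLM, a subunit of the glutathione-synthesis enzyme, rose from 13.2 ± 1.74 to 19.6 ± 0.644 TPM and the peroxidase GPX4 from 179 ± 3.60 to 253 ± 9.06 TPM. In all 12 of 26 NRF2 genes rose (46%, against 56.1% of all tested genes) and 6 fell (23.1%, against 15.2%), and some of them are not reported here. After median-ratio scaling 9 were higher and 14 lower.

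Several metallothioneins, small proteins that bind zinc and copper, fell. MT1X measured 106, 104 and 90.6 TPM in the DMSO libraries and 56.8, 57.7 and 58.6 TPM after 24 h (log2 fold change -0.79, SE 0.0619, adjusted p = 5.51e-08). MT1G fell from 64.5 ± 4.23 to 17.6 ± 3.46 TPM, MT1A from 24.4 ± 2.86 to 3.44 ± 1.03 TPM and MT2A from 35.0 ± 2.69 to 15.6 ± 3.80 TPM. MT1F, at 5.76 ± 1.03 and 4.99 ± 0.444 TPM, was not called. The genes of this cluster are near-identical, so the split of reads among them is uncertain. SLC30A1, a zinc exporter that the same factor, MTF1, controls, fell from 27.7 ± 4.72 to 16.6 ± 1.58 TPM and, like MT1F and MT2A, was chosen for mention after its values were seen. Other zinc transporters rose, among them SLC30A3 from 3.36 ± 0.595 to 7.63 ± 0.707 TPM and SLC30A9 from 20.9 ± 1.89 to 30.7 ± 0.696 TPM, so that over the whole list of 25 genes 7 rose and 8 fell (6 and 13 after median-ratio scaling).

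The promoter of MT1X is shown because metal response elements, TGCNCNC, are how MTF1 reaches these genes. It is the 250 bases before the start site in RefSeq on GRCh38.p14 at chr16:56682220-56682469 (plus strand), 5′ to 3′, with matches on either strand in capitals.
MT1X: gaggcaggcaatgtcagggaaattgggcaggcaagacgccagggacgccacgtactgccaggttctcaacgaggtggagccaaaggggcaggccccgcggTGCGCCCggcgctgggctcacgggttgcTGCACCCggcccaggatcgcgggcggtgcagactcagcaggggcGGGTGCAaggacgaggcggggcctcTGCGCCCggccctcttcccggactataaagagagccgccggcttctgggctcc
The 4 matches began 150, 122, 78 and 53 bases before the start. The motif is short, and 56.5% of 9252 promoters of tested genes held at least 1 match. In the metallothionein and zinc list 10 of 19 promoters did (52.6%), no larger a share. Members with a match had a median log2 fold change of 0.11 and those without it 0.035, which was not tested. Of the 9252 promoters 185 (2%) held 4 or more matches, a limit taken from MT1X itself. As above, a match is a description of letters and not a site.

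Among 26 heat shock chaperones 12 rose (46%, against 56.1% of all tested genes) and 5 fell. After median-ratio scaling 5 were higher and 13 lower. HSPA8, the constitutive chaperone, fell from 1566 ± 67.7 to 1314 ± 25.4 TPM. HSPA4L, an exchange factor of that family, rose from 2.77 ± 0.266 to 4.69 ± 0.432 TPM. In the ATF4 list 9 of 40 genes rose and 9 fell (8 and 27 after median-ratio scaling, 3 and 2 after spike-in scaling). ATF4, the factor of the amino acid response, fell from 457 ± 6.53 to 351 ± 4.66 TPM, and SLC7A5, a carrier of large amino acids, from 263 ± 36.6 to 169.8 ± 4.94 TPM. DDIT4, an inhibitor of mTOR, rose from 101 ± 3.64 to 155 ± 0.919 TPM, and PCK2, a mitochondrial enzyme of gluconeogenesis, from 11.3 ± 0.750 to 18.9 ± 1.11 TPM. Proteasome subunits gave 12 rises and 4 falls among 37 genes, against 3 and 23 after median-ratio scaling, and 10 falls without DMSO replicate 3.

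Of 50 autophagy and lysosome genes 37 rose (74.0%, against 56.1% of all tested genes) and 4 fell, with a median of 0.28 near the 0.23 of all genes. After median-ratio scaling 22 were higher and 11 lower, and after spike-in scaling 9 and 1. GABARAPL1, a protein of the autophagosome membrane, rose from 2.07 ± 0.208 to 4.87 ± 0.681 TPM, and MAP1LC3B, its relative, from 29.9 ± 2.49 to 42.8 ± 0.261 TPM. CTSB, which encodes the protease cathepsin B, fell from 365 ± 19.7 to 218 ± 0.727 TPM, against the direction of most of the list. Genes of glycolysis and hypoxia fell more often than they rose, 15 against 7 of 38 (27 and 7 after median-ratio scaling, and 11 rose without DMSO replicate 3). LDHA, lactate dehydrogenase, fell from 678 ± 16.3 to 519 ± 6.69 TPM and PGK1, a glycolytic kinase, from 949 ± 35.2 to 761 ± 0.679 TPM. ENO2, an enolase of neurons, rose from 30.7 ± 2.68 to 68.5 ± 0.584 TPM.

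Keratins are intermediate filaments of epithelia and were expressed by this myeloma line in DMSO. KRT16 and KRT6B fell from 140.0 ± 4.56 to 44.0 ± 1.94 TPM and from 4.09 ± 0.963 to 0.337 ± 0.112 TPM, as KRT15 and KRT6C did. In the list of epithelial genes and keratins 12 of 25 tested genes fell and 8 rose (13 and 8 after median-ratio scaling), while 67 of 92 were below the filter. The next families are also given beside the 56.1% of all tested genes that rose. Of 393 zinc finger ZNF genes 301 rose (76.6%) and 12 fell (median 0.36; 217 and 39 after median-ratio scaling), with ZNF362 from 2.68 ± 0.204 to 10.5 ± 0.493 TPM. Of 119 LINC non-coding RNA genes 82 rose (68.9%) and 8 fell (median 0.36; 58 and 16 after median-ratio scaling). Of 82 Mediator and polymerase II initiation genes 51 rose (62.2%, near the share of all genes, with a median of 0.20) and 5 fell, which became 18 higher and 21 lower after median-ratio scaling. MED12 and TAF9B rose from 15.01 ± 2.39 to 27.4 ± 1.44 TPM and from 12.5 ± 1.00 to 25.4 ± 0.477 TPM. The sources used here do not give whether the authors' counting used strand, so reads of genes that overlap on opposite strands may not be separated.

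The 24 h libraries were also set against the 6 h libraries, which tests what changed late. The difference itself does not use DMSO, but both comparisons share the 24 h libraries and the variance estimated over all 15 libraries. Of 12002 genes 8047 (67.0%) differed, with 4925 (41.0%) higher and 3122 (26.0%) lower at 24 h than at 6 h, and a median log2 difference of 0.078. Some genes of the plasma cell program were higher than at 6 h, but of those named here IRF4, MYC, SDC1 and MAF lost that call under spike-in scaling (limma, adjusted p = 0.0696, 0.423, 0.0571 and 0.0699), with MYC at a log2 difference of 0.22. IRF4 measured 37.8, 37.3 and 42.5 TPM at 6 h and was higher at 24 h (log2 difference 0.65, SE 0.0753, adjusted p = 1.85e-06), still below DMSO. MYC was at 221, 235 and 249.9 TPM at 6 h and was higher at 24 h (log2 difference 0.42, SE 0.0589, adjusted p = 1.31e-05), still below DMSO. SDC1, KLF2 and MAF were higher than at 6 h by 0.68, 0.76 and 0.66 on the log2 scale. BHLHA15, XBP1 and TNFRSF17 were instead lower than at 6 h, by 0.53, 0.43 and 0.55. Of 34 plasma cell and B cell transcription factors 23 were higher and 5 lower than at 6 h.

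Secretory genes, and MYC target and nucleolar genes, were mostly lower at 24 h than at 6 h. Of 58 ER genes 43 were lower and 5 higher at 24 h than at 6 h, and of 65 MYC target and nucleolar genes 57 and 1. HSPA5 was at 987, 1006 and 1045 TPM at 6 h, above DMSO, and fell below it by 24 h (log2 difference -1.33, SE 0.0410, adjusted p = 6.33e-12). ODC1 was at 766, 781 and 807 TPM at 6 h (log2 difference -1.05, SE 0.0456, adjusted p = 9.32e-11). Both genes were above all DMSO libraries at 6 h and below all of them at 24 h. Of 57 mitosis genes 25 were lower and 12 higher at 24 h than at 6 h, and PLK1, at 435 ± 32.1 TPM at 6 h, was lower by 0.28 on the log2 scale at 24 h. CCNB2 was at 339 ± 15.7 TPM at 6 h, near its 24 h level.

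Late changes were ranked only among genes that averaged 5 TPM or more and were called both against 6 h and against DMSO. Genes not called against DMSO at 24 h, such as those back at their DMSO level, could not enter this ranking. The largest late rises within it were PRAMEF4 (2.52), ID3 (2.49), PEX5L (2.44), CCR2 (2.38), MIR4712 (2.29), SSTR3 (2.21), LINC01484 (1.95) and PLA2G4A (1.95), on the log2 scale. Reads were uncertain for PRAMEF4, which has near-identical copies, and for MIR4712. PLA2G4A, a phospholipase, and SSTR3, a somatostatin receptor, had dropped to 13.1 ± 0.469 and 7.21 ± 0.538 TPM at 6 h and stood at 53.5 ± 2.33 and 36.9 ± 1.34 TPM at 24 h, below all DMSO libraries. CCR2, a chemokine receptor, passed its DMSO level of 8.66 ± 0.664 TPM to reach 19.9 ± 1.04 TPM. The largest late falls within the same ranking were KRT6C (-2.25), MT1G (-1.98), SKIL (-1.74), MT1X (-1.70), PCDH1 (-1.66), MT1A (-1.63), TUBB3 (-1.57) and PDGFA (-1.57). SKIL, a repressor of SMAD signalling, was at 20.3 ± 0.802 TPM at 6 h and 5.38 ± 0.217 TPM at 24 h. TUBB3, a tubulin gene, was at 23.6 ± 1.37 TPM at 6 h and 7.32 ± 1.02 TPM at 24 h.

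**Figure D5:**
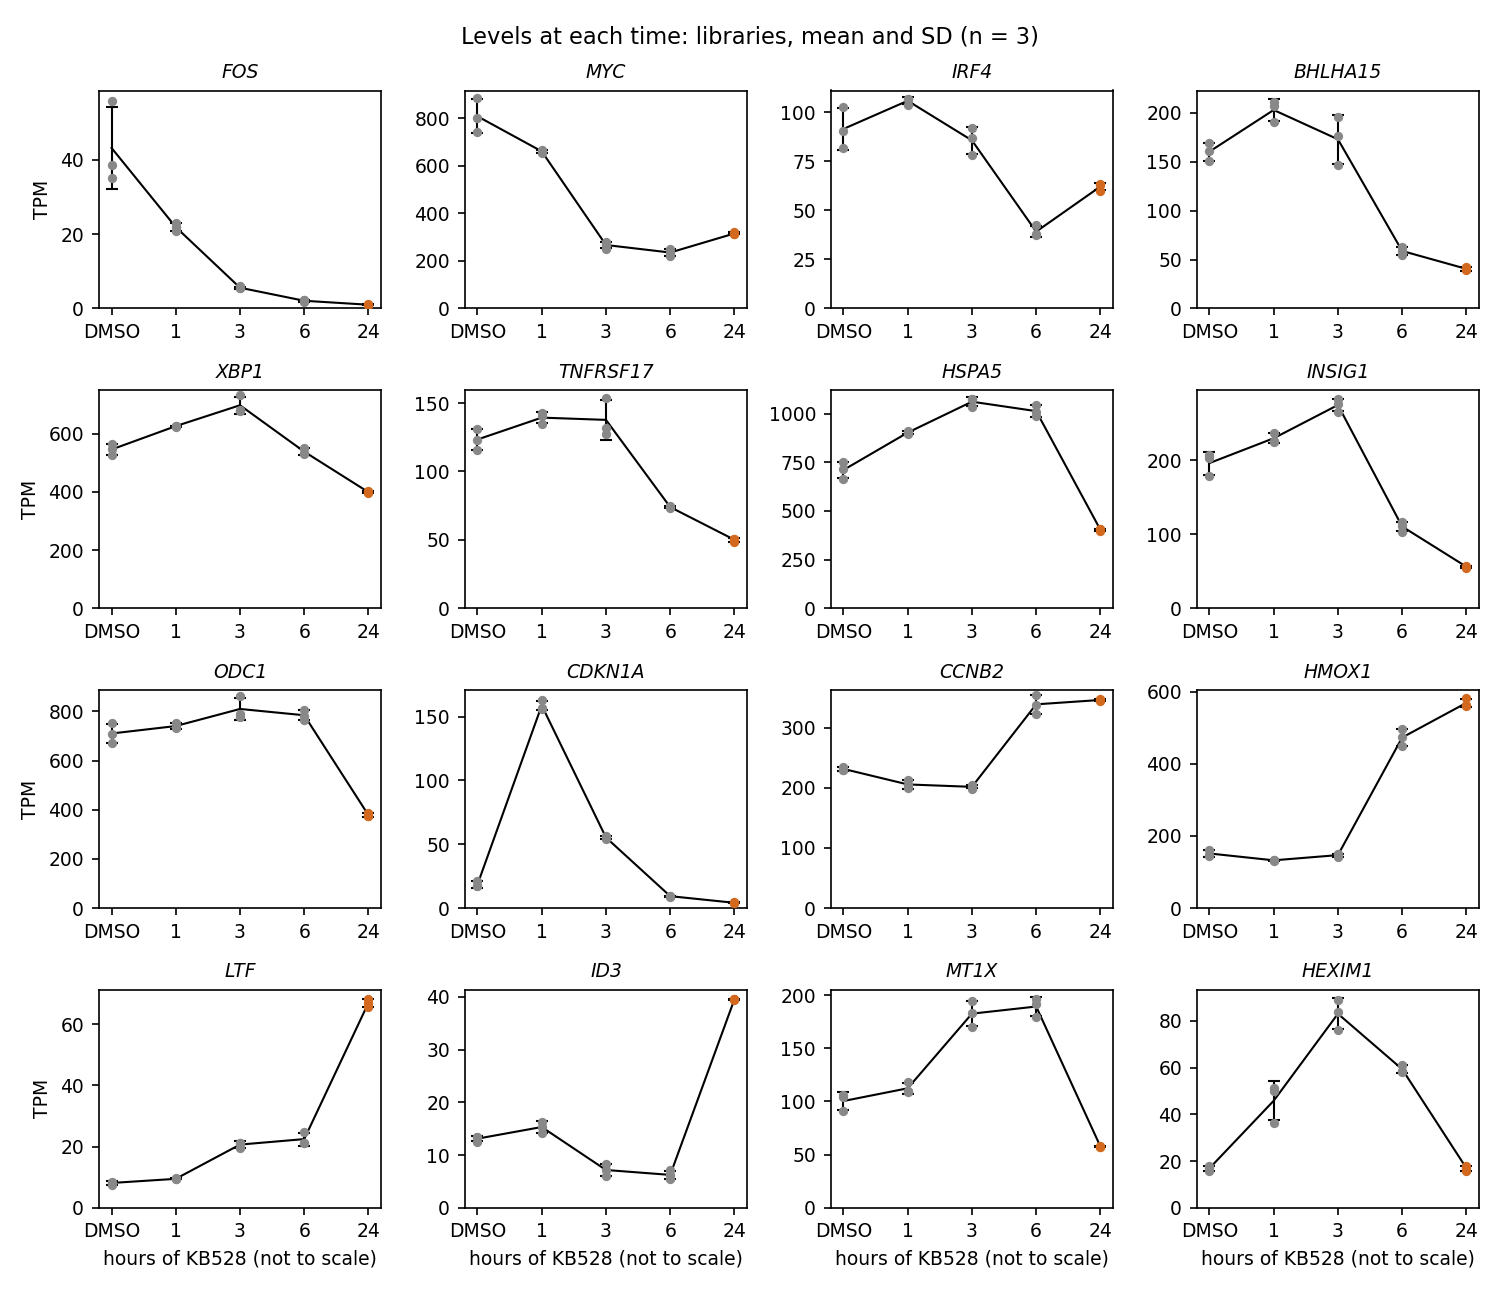
TPM (vertical axis) of 16 genes in each library at 0 h in DMSO and after 1, 3, 6 and 24 h of KB528 (horizontal axis, not to scale), with the mean and SD of 3 libraries and the 24 h libraries in colour. IRF4 and MYC are lowest at 6 h, HSPA5 and ODC1 fall only after 6 h, and LTF and ID3 are highest at 24 h.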

How the data were processed

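RNA-seq values of 15 libraries (5 groups of 3, grouped by the sample titles) were analysed, 6 of them in the comparison of 24 h of KB528 with DMSO and 3 more at 6 h. The authors deposited 1 table of TPM values, in which the 92 ERCC spike-in rows share each library's total with the 26364 gene rows. Per the submitters' processing notes the tools were featureCounts, STAR, MultiQC and FastQC and the build hg19, with no versions in the sources used here. The DMSO columns carry the name of no treatment at 0 h and were assigned through that time and the replicate numbers, which left 0 columns over. Depth per library is unknown, since TPM keeps none, and no interval for counting error could be given.

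Genes that averaged 1 TPM or more entered the test as log2(TPM + 1) in 1 fit with limma 3.58.1 in R 4.3.3, with a variance trend, with Benjamini-Hochberg adjustment of p-values over all 12002 genes and a threshold of 0.05. Contrasts were 24 h against DMSO and 24 h against 6 h. The members and the 43 gene lists were chosen with earlier results of these data known. FCRL5, GDF15, CDKN2C, IFI44L and ARRDC4, which lists hold, were under the filter. Genes were named by rule, and the marked members of each list were named whatever their result. The 15 largest increases and 15 largest decreases against DMSO came from called genes averaging 5 TPM or more whose groups did not overlap. The 8 largest changes each way against 6 h came from genes averaging 5 TPM or more and called in both contrasts. Up to 5 members per list with the smallest adjusted p against DMSO were also named, called or not. The text gives a part of these, and some genes are not reported here.

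Tested on simulated data for 24 h against DMSO over 12002 genes, the fit recovered 22 of 50 genes changed 1.25-fold and 46 of 50 changed 1.5-fold. A further 50 genes each were changed 2-fold and 4-fold, and the rest were unchanged. The fit made 170 calls there, 5 of them false, against 8564 in the data. The simulation thus had far fewer changed genes, so its rates do not describe the real comparison. Alternatives tried were 0.1 as pseudocount, a filter at 5 TPM or none, median-ratio and spike-in scaling, TPM without spike-ins or small RNA genes, length correction, no variance trend, only the compared groups, a replicate block and leaving out each library. Transcript lengths came from GENCODE v29 by gene name, and promoters and names from RefSeq on GRCh38.p14. No coordinate was converted between builds. Tables and figures used Python 3.11.15, numpy 2.4.6, pandas 2.3.3 and matplotlib 3.10.9.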

Additional observations from a re-analysis of the deposited data

Results flagged for a closer look

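The change from DMSO at 24 h differed from the change at 6 h for many genes, as tested by the contrast of 24 h with 6 h in the same limma fit. It was higher at 24 h for 4925 genes and lower for 3122.

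Among the named genes, the 24 h value was higher than the 6 h value, on the log2 scale, by 2.52 for PRAMEF4, 2.49 for ID3, 2.44 for PEX5L, 2.38 for CCR2, 2.29 for MIR4712, 2.21 for SSTR3, 1.95 for LINC01484 and 1.95 for PLA2G4A. The log2 difference was -2.25 for KRT6C, -1.98 for MT1G, -1.74 for SKIL, -1.70 for MT1X, -1.66 for PCDH1, -1.63 for MT1A, -1.57 for TUBB3 and -1.57 for PDGFA.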

How the results depend on the processing

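With a replicate block 6786 genes were higher and 1850 lower at 24 h than in DMSO, and it changed no call of a named gene. Replicate numbers did not pair the samples: same-numbered DMSO and 24 h libraries deviated from their group means with r of -0.13 to 0.032, and 1 of 3 libraries at 24 h correlated best with its own number. Against DMSO, the lower genes numbered 3485 after median-ratio scaling. Spike-in scaling gave 3096 called genes (2439 higher, 657 lower) and length correction 4033 higher and 4052 lower, the first with spike-in factors that spread between replicates. Against 6 h, spike-in scaling gave 3677 called genes (1640 higher, 2037 lower). Under it IRF4, MYC, SDC1 and MAF, 4 of 23 named genes, lost their call against 6 h. Of 43 gene lists, 17 had more lower than higher members, against 27 after median-ratio scaling and 32 after length correction. Leaving out 1 library gave 5978 to 7004 higher and 1608 to 1973 lower genes against DMSO, and 4460 to 4961 higher and 2613 to 3076 lower against 6 h. After length correction the log2 fold change of HEXIM1 was -0.24, which was called, and that of IKZF1 -0.051. Every other named gene that was called kept its direction under every alternative run. Depth is unknown, so how far counting error limits low genes was not computed.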

Other observations

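Among growth brakes, TSC22D3, a glucocorticoid-induced gene, fell from 7.06 ± 0.813 to 3.48 ± 0.196 TPM, and TXNIP, an inhibitor of glucose uptake, from 177 ± 9.84 to 142 ± 2.16 TPM. Of 8 tested genes of that list 3 rose and 2 fell (2 and 2 after median-ratio scaling, 2 and 5 after length correction). Of 11 Kruppel-like factors 4 fell and 2 rose, and 1 rose without DMSO replicate 2 or 24 h replicate 2. After median-ratio scaling 6 of them were lower and 0 higher. Beside KLF2, KLF15 fell from 25.8 ± 1.55 to 13.7 ± 1.09 TPM and KLF10 from 29.7 ± 4.91 to 23.6 ± 0.821 TPM. Splicing factors of the SR and hnRNP families rose in 25 of 42 cases (59.5%, near the 56.1% of all tested genes) and fell in 6. These became 15 higher and 14 lower after median-ratio scaling and 12 and 18 after length correction. HNRNPLL, a splicing regulator of lymphocytes, rose from 18.9 ± 1.04 to 28.98 ± 0.918 TPM, and CLK4, a kinase of splicing factors, from 5.77 ± 0.463 to 9.12 ± 0.332 TPM. Among secreted and signalling genes outside the larger groups, ADM, which encodes adrenomedullin, fell from 44.5 ± 2.32 to 24.3 ± 0.741 TPM, and CA9, a carbonic anhydrase, from 2.24 ± 0.304 to 0.798 ± 0.0549 TPM. BAMBI, a decoy receptor of TGF-beta signalling, fell from 10.3 ± 0.307 to 5.54 ± 0.460 TPM.

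LINC01606 and LINC01480 fell from 3.09 ± 0.248 to 0.569 ± 0.222 TPM and from 55.6 ± 2.89 to 24.7 ± 2.35 TPM, against the direction of most LINC genes. The adhesion gene PCDH1 was at 12 ± 1.21 TPM in DMSO, 11.1 ± 0.442 TPM at 6 h and 2.83 ± 0.112 TPM at 24 h. PDGFA, which encodes a platelet-derived growth factor chain, was at 4.09 ± 0.286 TPM in DMSO, 5.87 ± 0.187 TPM at 6 h and 1.32 ± 0.232 TPM at 24 h.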
